A study of Mus musculus with 10 samples.

Results

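The regions described here are Rbfox2 binding clusters that lie inside very long genes of mouse embryonic stem (ES) cells. A cluster, a stretch of RNA with crosslinked fragments, was taken when it overlapped exactly 1 entry of the deposited expression table, when the locus of that entry spanned at least 300 kb, and when the entry had a mean of at least 1 FPKM in the control cells. Its summit also had to lie more than 2 kb from both ends of the locus. Of the 35639 clusters in the deposited list, 1420 (3.98%) met the rule, and they lay in 67 host genes. Beyond the 2 kb margin, the position of a cluster in its locus did not enter the rule, nor did its spacing. The knockdown values of its host did not enter either, but the control values, against which the response to the hairpins is measured, did.

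Rbfox2 is a sequence-specific RNA-binding protein that regulates alternative splicing, often from sites in introns beside the exon it controls. Very long genes consist mostly of intron, and their transcripts take long to make and to splice, so most of the RNA on which such a protein can act is removed from the final message. Many very long genes code for adhesion molecules, scaffolds and signalling proteins, and several span common fragile sites, regions prone to breakage when replication is slowed.

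The series examined Rbfox2 in V6.5 mouse ES cells grown on gelatin with the cytokine LIF. For RNA-seq, cells were infected with lentivirus carrying a hairpin against Rbfox2 (shFox2-1 or shFox2-2) or a control hairpin against luciferase (shLuc) or GFP (shGFP). They were kept in puromycin at 1 µg/ml for 3 days and then 24 h without it. Each hairpin was used in 2 biological replicates, 8 libraries in all, but the deposited table holds 1 value per hairpin, so knockdown and control have 2 values each. For iCLIP, which recovers RNA crosslinked to a protein by ultraviolet light, cells expressed human RBFOX2 from a doxycycline-inducible lentivirus, with a FLAG-HA tag (FHFOX2) or without it (UntagFOX2). They were selected in hygromycin at 150 µg/ml for 6 days, induced with doxycycline at 1 µg/ml for 24 h and irradiated at 150 mJ/cm2. The clusters therefore show where an added human protein was recovered from mouse RNA, in 1 tagged library set against 1 untagged library. The PCR ran for 16 cycles in both, with 7 further cycles for UntagFOX2.

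Expression is given in FPKM, a unit in which fragments are divided by transcript length and by the number mapped. The ES cell markers Pou5f1 and Tdgf1 lay between 243 and 336 FPKM in all 4 hairpins, and Zfp42, Sall4, Utf1 and 1 of the 2 Sox2 entries between 71.0 and 189. Klf4 and Esrrb lay between 13.3 and 43.4 FPKM. The targeted gene, listed as Rbm9, had 8.56 FPKM in shFox2-1 and 7.21 in shFox2-2, against 24.7 in shLuc and 23.3 in shGFP. Sequencing depth was unknown for both assays, since neither FPKM values nor a cluster list carries the total number of reads.

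Of 26857 entries in the expression table, 664 had a locus of at least 300 kb and 180 of these reached 1 FPKM in the control cells. Another entry shared the locus in 110 of the 180, and the 990 clusters in those 92 shared loci were not counted. The remaining 70 entries stood alone in their locus and held 1435 clusters that overlapped no other entry, of which 15 had their summit within the 2 kb margin. The members nearest to the limits were few. The closest summit left out was 1707.5 bp from the end of Cdkal1 and the closest kept was 2110 bp from the end of Etl4. Akap13, at 299.3 kb, was just too short, and Prkcm, at 307.4 kb, was the shortest host. Slc4a4, at 0.943 FPKM, was just too low, while Prkcm, at 1.04 FPKM, was the lowest host.

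The median host locus was 396 kb long, and control levels ran to 49.1 FPKM with a median of 4.13. The clusters of each host carried 1 Ensembl gene ID and lay on 1 strand, plus in 37 hosts and minus in 30. Where RefSeq (GRCm38.p6) lists the gene, in 51 hosts, its strand was the same in all 51. The strand of the clusters was therefore used to tell the 5′ end of a host, where transcription starts, from the 3′ end. Whether a cluster lies in an exon or an intron was not analysed here.

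Clusters were spread very unevenly over the hosts. The median host had 13 clusters, or 3.12 per 100 kb, and the range was 1 to 135 clusters and 0.0820 to 24.2 per 100 kb. Densities are per 100 kb of locus left after the 2 kb margin at each end is taken off. The 23 hosts with at least 20 clusters held 1037 of them, the 5 richest hosts held 467 (32.9%), and the 10 richest held 718 (50.6%). Clusters covered a median of 0.451% of a host locus.

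Smyd3, which codes for a lysine methyltransferase, was the richest and densest host, with 135 clusters over 563 kb (mm9 chr1:180885161-181448134, minus strand), or 24.2 per 100 kb. Exoc4, a subunit of the exocyst complex that tethers secretory vesicles, had 101 clusters over 724 kb (chr6:33199149-33922943, plus strand), or 14.0 per 100 kb. Wwox, an oxidoreductase gene that spans a common fragile site, had 99 over 913 kb (chr8:116963595-117876608, plus strand), or 10.9 per 100 kb. Rad51l1 (now Rad51b), a gene of homologous recombination, had 69 clusters, or 13.4 per 100 kb (chr12:80398268-80915677, plus strand). These 4 hosts and Magi1, a junction scaffold with 63 clusters, were the 5 richest.

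The next hosts were each under 12 clusters per 100 kb. Etl4 had 58 clusters and 11.2 per 100 kb, Large, a glycosyltransferase of dystroglycan, had 55 and 10.3, and Centg2 (now Agap1), a GTPase-activating protein for Arf, had 49 and 11.2. Camta1, a calmodulin-binding transcription activator with a locus of 802 kb, also had 49 but only 6.14 per 100 kb. Cdkal1, a tRNA methylthiotransferase, had 40 clusters and 7.60 per 100 kb.

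Grip1, a scaffold that binds glutamate receptors, held 20 in 621 kb. Dock3 and Dock4, which code for activators of small GTPases, held 1 cluster each, and 11 hosts held fewer than 5. Across the 67 hosts the number of clusters had a Spearman correlation of 0.39 with locus length. With mean control FPKM it was 0.46, while Pearson's r was 0.09, and the hosts of highest FPKM were not the richest. Genes are not replicates, and clusters of 1 library can only be called on RNA that is present, so these are descriptions.

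Single hosts departed widely from that relation. Smyd3 carried its 135 clusters at a control mean of 4.10 FPKM and Rad51l1 its 69 at 1.76 FPKM. Adk, adenosine kinase, held 14 clusters at 49.1 FPKM, and Bre (now Babam2), a member of a deubiquitinase complex, held 8 at 29.4 FPKM. FPKM was measured on poly(A)-selected RNA, and the amount of unspliced transcript in the hosts was not measured.

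**Figure D1:**
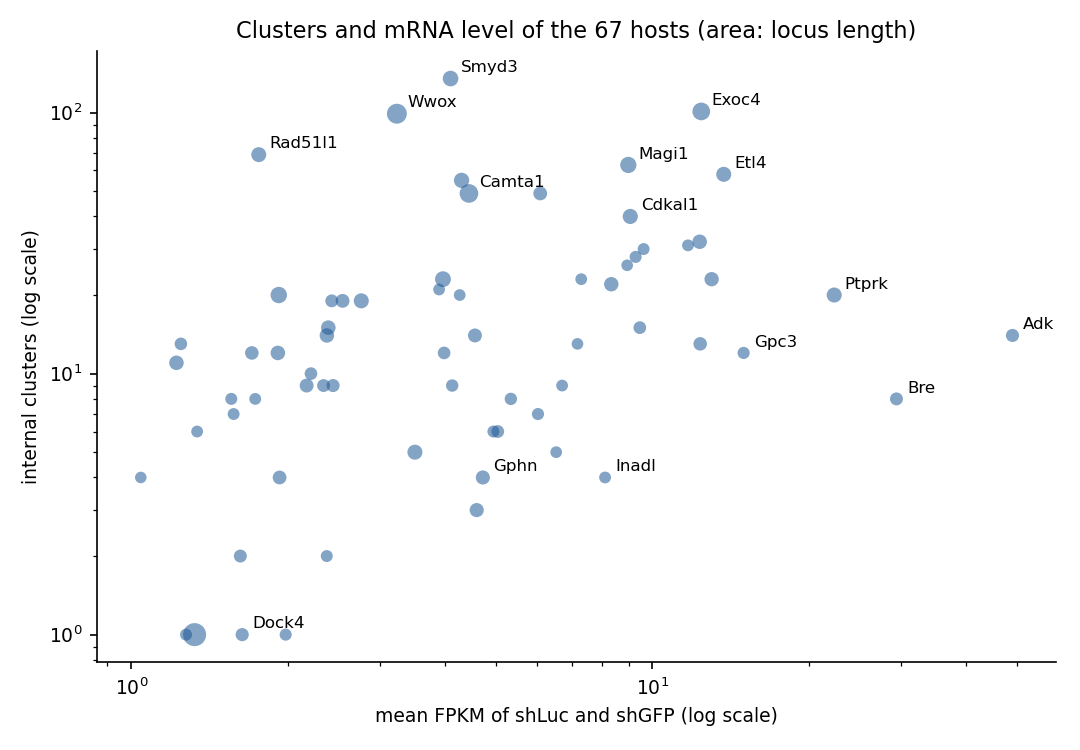
Number of internal clusters (y axis, log scale) against the mean FPKM of shLuc and shGFP (x axis, log scale) for the 67 hosts, 1 point per host, with point area in proportion to locus length. Smyd3, with 135 clusters at 4.10 FPKM, stands at the top, while Adk, the host of highest level at 49.1 FPKM, holds 14.

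Distances between neighbouring summits in a host formed 1353 pairs. The median was 3.79 kb, with quartiles of 0.792 and 15.0 kb. Neighbours were less than 1 kb apart in 385 pairs (28.5%) and less than 10 kb apart in 923 (68.2%). All but a few, 1322 of the 1353, were less than 100 kb apart. Members overlapped a neighbour in 60 pairs, and merging these left 1360 clusters with a median spacing of 4.31 kb.

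The closest pairs were 9 bp and 27 bp apart in Smyd3 and 23 bp apart in Rad51l1. The widest gaps between neighbours were 277 kb in Gphn, which codes for the synaptic scaffold gephyrin, 249 kb in Msra, a methionine sulfoxide reductase, and 232 kb in Zfp291 (now Scaper). Without the 5 richest hosts the median spacing was 5.78 kb. In the median host the longest stretch without a cluster that met the rule took up 31.9% of the locus. In 15 hosts it took up more than 50%. Clusters that overlapped a second entry were not counted, so such a stretch may still hold some. In Plxdc2 all 9 counted clusters lay within 69.7 kb of the 5′ end, and the remaining 326 kb had none that met the rule. Plxdc2 was named after its values were seen.

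The tightest group was in Smyd3. A window of 9.65 kb (mm9 chr1:181155711-181165459), 282.8 to 292.4 kb from the 5′ end of the gene, held 51 clusters, with a median of 71.5 bp between summits. These were 37.8% of the clusters of Smyd3 and 45.2% of its summed coverage. Coverage, a value the authors give for each cluster without stating its definition, had a median of 1760 in the window, against 665.5 in the other 84 clusters of the gene. Of the 51 clusters, 9 had no coverage in the untagged library, against 21 of the other 84. In the window the authors' fold over the untagged library ranged upward from 1.68, with a median of 4.76 among clusters with a finite fold. No other host had more than 9 clusters in any 10 kb. Outside the window, Smyd3 held 15.3 clusters per 100 kb, against 14.0 in the whole of Exoc4. The window was noticed in the data, and the repeat content of its sequence was not analysed here.

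**Figure D2:**
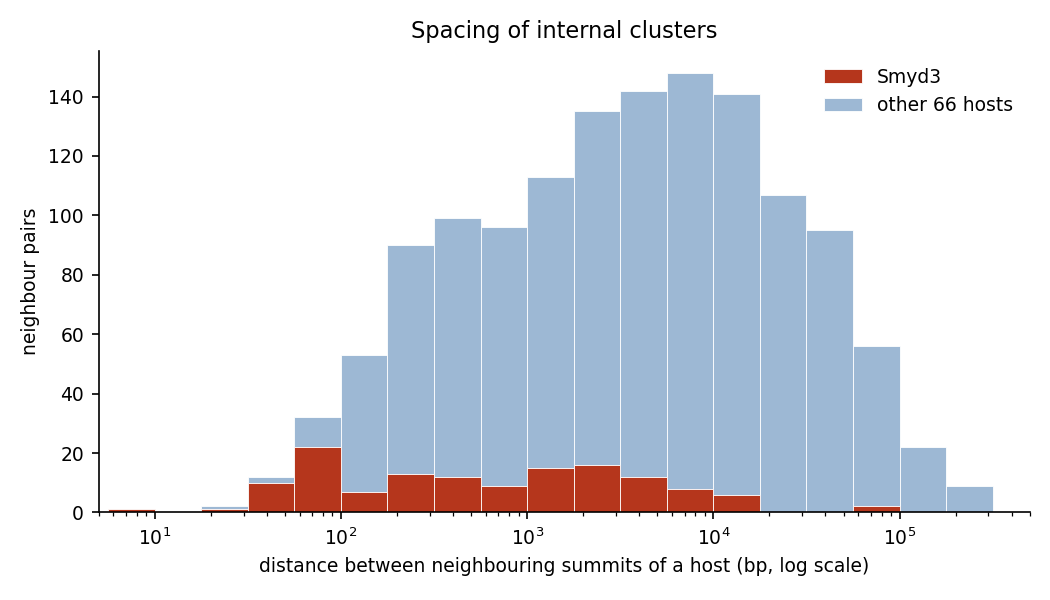
Number of neighbour pairs (y axis) by the distance between their summits (x axis, bp, log scale), with Smyd3 in red and the other 66 hosts stacked above it in blue. The median pair is 3.79 kb apart, and Smyd3 makes up most of the pairs less than 100 bp apart.

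Internal clusters were more frequent toward the 5′ end. Of the 1420, 893 (62.9%, exact binomial 95% interval 60.3 to 65.4%) lay on the 5′ side of the midpoint of their locus. The interval covers counting error only, and clusters of 1 host are not independent. The share was 65.3% without Smyd3 and 61.1% without the 5 richest hosts. Among the 40 hosts with at least 10 clusters, 30 had most of them on the 5′ side, 8 on the 3′ side and 2 had equal numbers. In 10 equal segments of the locus, counted from the 5′ end, the shares were 14.2, 12.0, 10.6, 14.6, 11.5, 15.4, 6.55, 6.41, 5.28 and 3.45%. The shares were all above 10% up to segment 6 and all below 7% from segment 7. Of the 219 clusters in segment 6, 144 lay outside Smyd3. Without that gene the share of segment 6 was 11.2%, against 6.85% in segment 7.

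Hosts differed greatly in this pattern. In Rad51l1 92.8% of the 69 clusters lay on the 5′ side, and in Diap2 (now Diaph2), a formin that nucleates actin, 87.0% of 23 did. Slc39a11, a zinc transporter, had 85.7% of its 21 clusters there. Among hosts with at least 10 clusters the lowest share was that of Ches1 (now Foxn3), a forkhead transcription repressor, with 8.33% of 12 on the 5′ side, and Rims2, a scaffold of the presynaptic active zone, had 21.4% of 14. In Etl4, with 22.4%, the first 235 kb held no internal cluster, while in Utrn, the dystrophin relative utrophin, the share was 27.3% of 22. A locus is the span of all transcripts of an entry, and which start was used in these cells was not analysed here.

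**Figure D3:**
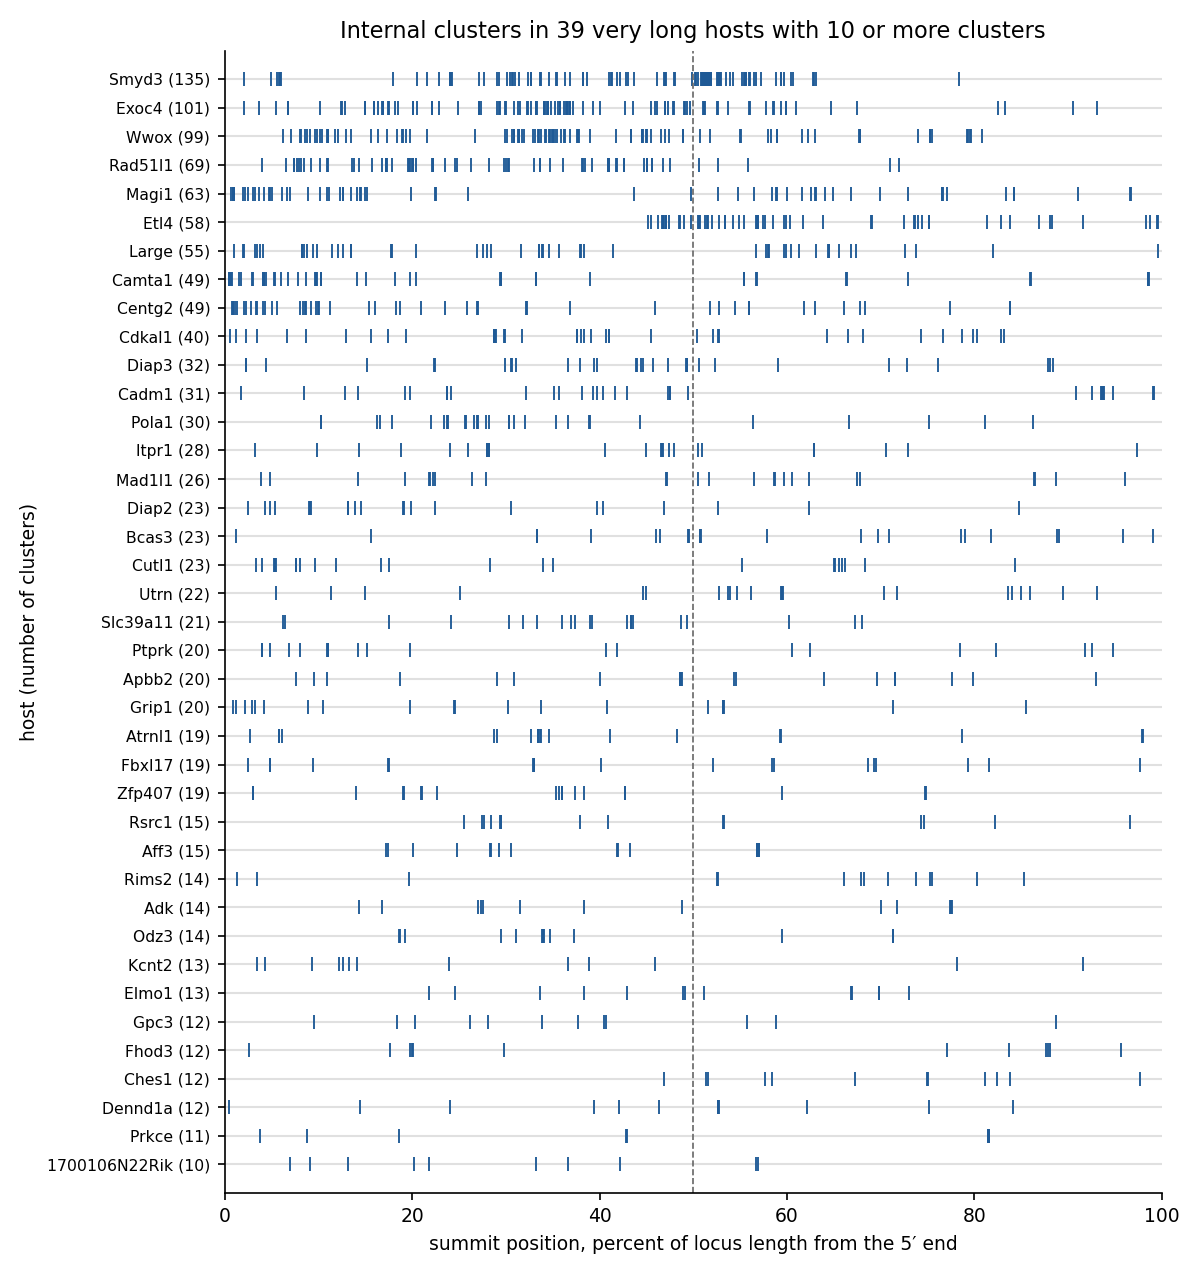
Position of the internal clusters in 39 of the 40 hosts with at least 10, 1 line per host from the most clusters at the top, with a tick at each summit (x axis, percent of the locus from the 5′ end) and a dashed line at the midpoint. Ticks left of the midpoint outnumber those right of it in most of these hosts, and Etl4 has none in the first 235 kb.

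The same counts were made in shorter expressed loci that stood alone. A cluster was found in 67 of 70 very long loci (95.7%), in 90.1% of 708 loci of 100 to 300 kb, in 77.1% of 2665 loci of 30 to 100 kb and in 48.9% of 3433 loci of 10 to 30 kb. Among loci with a cluster the median density ran the other way, at 3.12 per 100 kb in the hosts and 4.60, 7.33 and 12.3 in the 3 shorter classes. A short locus with a single cluster already has a high density, so the densities pooled over all loci of a class are closer together, at 4.63 in the very long class and 5.65, 7.16 and 7.86 in the shorter ones. Within the very long class density did not fall with length. Its Spearman correlation with locus length was 0.25 across the 67 hosts, and the 15 hosts of at least 500 kb had a median of 7.60 per 100 kb. Median control levels were lower in longer loci, at 4.11 FPKM in the very long loci and 5.12, 7.71 and 8.37 in the shorter classes.

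Within ranges of control level the median density of loci with a cluster was lower in very long loci than in loci of 100 to 300 kb. At 1 to 3 FPKM it was 2.37 per 100 kb in very long loci, against 2.72 in the shorter ones. At 3 to 10 FPKM it was 4.14 in very long loci, against 4.55 in the shorter ones, and at 10 FPKM or more 4.38 in the 10 very long loci with a cluster, against 8.54 in the shorter ones. The densities pooled over all loci of a range were 2.39, 6.21 and 6.26 in very long loci, against 2.62, 5.54 and 9.60 in the shorter ones. The higher pooled value at 3 to 10 FPKM rested on Smyd3, without which it was 5.40. Median spacing was 3.79 kb in the hosts and 3.38 kb in loci of 100 to 300 kb. The share of clusters on the 5′ side was 62.9% in the hosts, 57.1% in loci of 100 to 300 kb, 50.8% in loci of 30 to 100 kb and 48.2% in loci of 10 to 30 kb. With no replicate of the iCLIP library, none of these differences was tested.

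**Figure D4:**
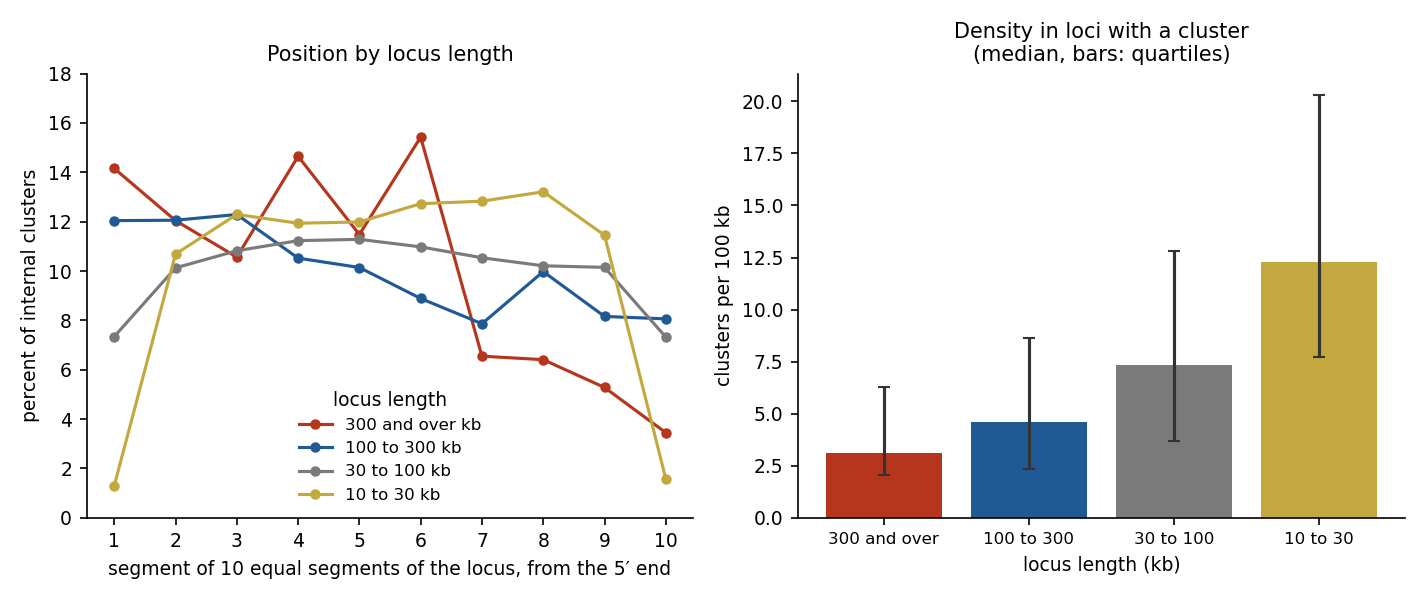
Left, share of internal clusters (y axis, percent) in each of 10 equal segments of the locus from the 5′ end (x axis), 1 line per class of locus length. Right, median clusters per 100 kb in loci with a cluster, with bars for the quartiles. The very long class falls to 3.45% in the last segment, against 8.06% for loci of 100 to 300 kb, and has the lowest median density, 3.12 per 100 kb. Its peak of 15.4% in segment 6 rests on Smyd3, without which that share is 11.2%. In loci under 30 kb the 2 kb margin takes away most of the end segments.

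The values of single internal clusters were close to those of the rest of the list. Their median coverage was 357, against 375 for the 34219 other clusters, and their median width was 89 bases, against 91. No untagged coverage was recorded for 708 of them (49.9%, exact 95% interval 47.2 to 52.5%), against 44.7% of the others (44.2 to 45.2%). Where the fold over the untagged library was finite its median was 3.86, against 3.66. Internal clusters of shorter expressed loci had slightly higher median folds. These were 4.16 in loci of 100 to 300 kb, 3.95 at 30 to 100 kb and 3.875 at 10 to 30 kb. In loci of 100 to 300 kb 46.9% of internal clusters had no untagged coverage. In the hosts the share without untagged coverage was 52.8% without Smyd3, in which 30 of 135 clusters had none.

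Coverage within a host was concentrated. In the 40 hosts with at least 10 clusters the strongest cluster held a median of 31.0% of the host's summed coverage, from 12.0% in Exoc4 to 76.4% in Elmo1, an adaptor that activates Rac with DOCK proteins. The strongest internal clusters were a pair in Smyd3, outside the dense window. One, at mm9 chr1:181209853-181211063, had a coverage of 61527 and an 8.46-fold enrichment over the untagged library, and the other, at chr1:181215965-181216706, had 46757 and 7.69-fold. They lay 237.7 and 231.8 kb from the 5′ end. Camta1 followed with 43122 (chr4:150650191-150651120, 585 kb from the 5′ end), and it was 44.8% of the coverage of that gene. Atrnl1, an attractin-like membrane protein, had a cluster of 36208 at chr19:57861189-57861848. The strongest cluster of Centg2, 35702 at chr1:91355388-91356914, lay only 4.73 kb from its 5′ end.

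Of the 70 very long expressed loci that stood alone, 3 had no cluster. Pftk1 (576 kb) and Slc35f1 (421 kb) were close to the lower level limit, at 1.10 and 1.04 FPKM in the control cells. LOC100041948, spanning 437 kb on chromosome 14, had no cluster at 422 FPKM. No role is given here to that entry.

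The response of the hosts to loss of Rbfox2 was measured on the scale log2(FPKM + 1), which understates the change of genes with low FPKM. A value pools the cells of a culture, so fewer cells of a kind and less RNA per cell cannot be told apart. Limma, fitted over 20281 entries with Benjamini-Hochberg adjustment, called 0 of the 66 hosts tested at an adjusted p under 0.05, and 0.0% of all entries, with 0.978 as the smallest adjusted p among hosts. Because the fit called no entry at all, the lack of calls among hosts, or in any list below, does not show that they were unchanged. The entry of Magi1 had a failed status and was left out. At an unadjusted p under 0.05, limma gave 2 of the 66 hosts, against 4.48% of all entries. With 2 pooled values against 2, the spread behind limma's p is that among hairpins, and the spread among cultures is not in it.

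The hosts below their controls are described by the deposited values. The 2 unadjusted hosts were Rims2 and Odz3 (now Tenm3), a teneurin cell adhesion receptor. Odz3 had 3.16 FPKM in both shFox2-1 and shFox2-2, against 4.73 in shLuc and 4.40 in shGFP, a log2 difference of -0.42 with a standard error of 0.15 (limma adjusted p = 0.978). It was the 1 host whose deposited confidence intervals did not overlap between knockdown and control, at 2.67 to 3.66 and 2.58 to 3.74 FPKM in the knockdown hairpins and 4.14 to 5.31 and 3.78 to 5.03 in the controls. The share of expressed entries separated in this way was 0.293%, and 0.119% with knockdown lower. When each hairpin was centred on its median expressed entry, the intervals of Odz3 overlapped and 0 hosts were separated. Rims2 had 1.43 and 1.57 FPKM in the knockdown hairpins, against 2.33 and 2.41 in the controls, and its intervals overlapped (log2 difference -0.43, limma adjusted p = 0.978).

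The 2 knockdown hairpins were both lower than either control in 24 of the 67 hosts (35.8%), against 18.4% of all 12649 expressed entries. Both were higher than either in 7 hosts (10.4%), against 13.8%. The log2 difference was negative in 49 of 66 hosts, against 53.4% of expressed entries, and its median was -0.10 in the hosts and -0.01 in all expressed entries. The median was -0.01 in loci of 100 to 300 kb, where 22.0% of entries had both knockdown hairpins lower than either control. In 108 expressed entries that shared a locus of at least 300 kb, the median was 0.01 and 45.4% were lower. Both knockdown hairpins were lower than either control in 15.7% of these entries and higher than either in 19.4%. The lean of the hosts was thus not seen in the entries of shared very long loci. Hosts and expressed entries were all chosen by control FPKM, which also enters this difference. An entry near 1 FPKM was kept only when its control values were high enough, which favours a negative difference at low levels. In the 25 tested hosts with a control FPKM of at least 5, the median was -0.06 and 68.0% were lower. Every gene shares the same 4 pooled cultures, and no test was made over the hosts as a list.

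The 2 knockdown hairpins were unlike in this respect once the scale of each was set aside. The median expressed entry was shifted by 0.09 (log2) in shFox2-1, -0.11 in shFox2-2, -0.03 in shLuc and 0.04 in shGFP relative to the mean of the 4. After each hairpin was centred on that median, hosts in shFox2-1 had a median difference of -0.25 from shLuc, with 54 of 66 lower, and of -0.13 from shGFP, with 48 lower. In shFox2-2 the medians were -0.01 from shLuc, with 35 lower, and 0.04 from shGFP, with 28 lower. In all expressed entries the median difference from either control was -0.017 in shFox2-1 and 0.016 in shFox2-2. The share of expressed entries that were lower was not counted for these differences. The 4 differences share hairpins, and the difference between the 2 knockdown hairpins was not tested. After centring, 15 of 67 hosts (22.4%) had both knockdown hairpins lower than either control, against 17.3% of expressed entries, and 13 hosts did so under both scalings. Both knockdown hairpins were higher than either control in 4 hosts (5.97%) after centring, against 17.9% of expressed entries. Among the 26 hosts with at least 5 FPKM in the controls, both knockdown hairpins were lower than either control in 8 as deposited. The share of expressed entries at that level was not counted, so this count has no background beside it.

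**Figure D5:**
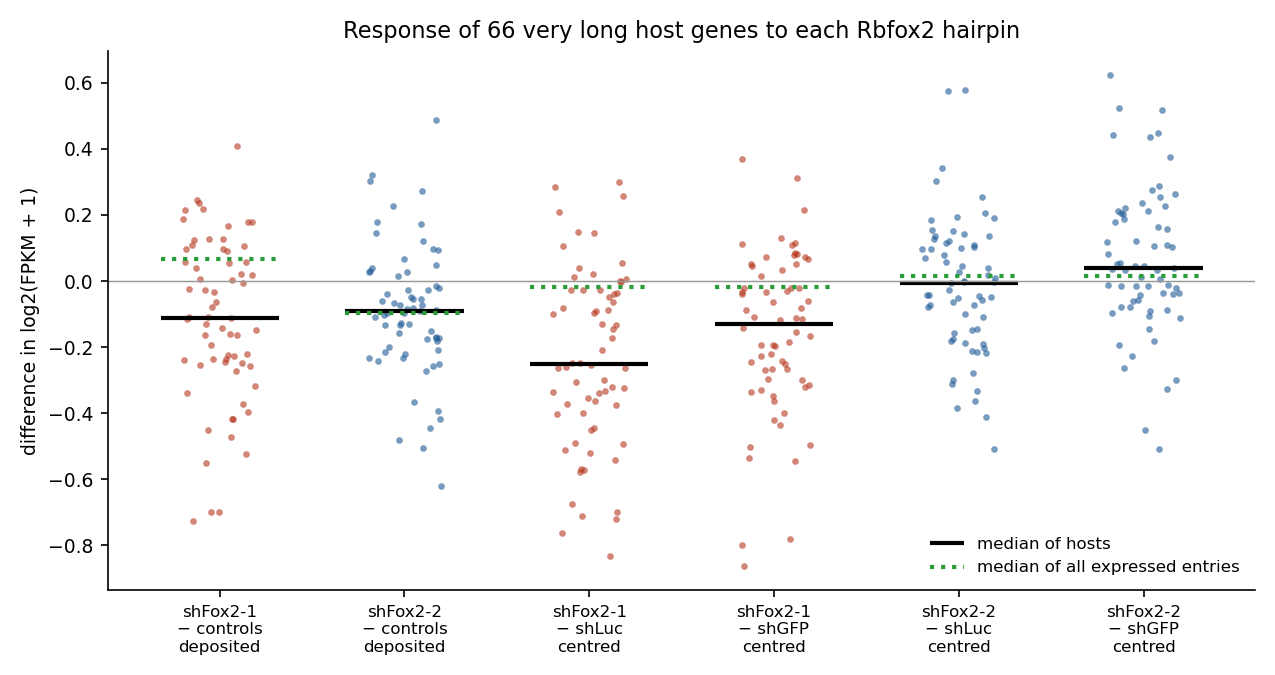
Difference in log2(FPKM + 1) of the 66 tested hosts, 1 point per host, for each knockdown hairpin against the mean of the controls as deposited (left 2 columns) and against each control after centring (right 4 columns). Black lines are host medians and green dotted lines the medians of all expressed entries. After centring, the host medians are -0.25 and -0.13 for shFox2-1 and -0.01 and 0.04 for shFox2-2.

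The number of clusters did not order the responses. Across 66 hosts the Spearman correlation of the log2 difference with the number of clusters was -0.0056, and with clusters per 100 kb it was -0.0068. The median difference was -0.13 in 11 hosts with 1 to 4 clusters, -0.03 in 16 with 5 to 9, -0.24 in 17 with 10 to 19 and -0.04 in 22 with 20 or more. As deposited, both knockdown hairpins were lower than either control in 10 of the 17 hosts with 10 to 19 clusters (58.8%). This order was found in 3 of the 22 richest tested hosts (13.6%), against 18.4% of all expressed entries. It was not counted by number of clusters after centring.

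The richest hosts showed small differences. Smyd3 had 3.55 and 3.87 FPKM in the knockdown hairpins, against 3.72 and 4.47 in the controls, and the groups overlapped. Exoc4 had 14.6 FPKM in shFox2-1 and 10.8 in shFox2-2, against 12.0 and 12.8 in the controls, so the knockdown hairpins lay on either side of both. Wwox, at 3.52 and 3.04 against 3.13 and 3.33, had this order as deposited, but after centring both knockdown hairpins lay slightly above either control. Rad51l1 had 1.33 and 1.55 FPKM in the knockdown hairpins, against 1.84 and 1.68 in the controls, and Magi1, whose entry had a failed status, 7.57 and 8.62 against 8.88 and 9.10. Neither kept the order after centring. In Etl4, Large and Camta1 the groups overlapped, with log2 differences of -0.19, -0.14 and -0.15.

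Of 98 genes in the list of adhesion, receptor and matrix genes 4 were hosts, with 66 clusters. As deposited, both knockdown hairpins were lower than either control in all 4, an order found in 18.4% of expressed entries. After centring, 2 of the 4 kept it (Odz3 and Robo1), and Gpc3 and Cadm1 did not. The median of the log2 differences was -0.32, against -0.01 in all expressed entries, and limma called none of them. Gpc3, the heparan sulfate proteoglycan glypican-3, had 8.80 FPKM in shFox2-1 and 13.1 in shFox2-2, against 13.7 and 16.3 in the controls (log2 difference -0.44, SE 0.21). Cadm1, an immunoglobulin-family adhesion molecule with 31 clusters, had 8.82 and 11.0 FPKM, against 12.2 and 11.2. Robo1, a receptor for Slit guidance proteins, had 2.05 and 1.96 FPKM, against 2.36 and 2.31. The remaining host of the list is Odz3, an adhesion receptor that also was the only host in the list of 26 microtubule and motor proteins, although it is neither.

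Channels and calcium handling gave 3 hosts of 48 genes. Itpr1, the inositol trisphosphate receptor that releases calcium from the endoplasmic reticulum, had 6.14 and 7.88 FPKM in the knockdown hairpins, against 9.78 and 8.79 in the controls (log2 difference -0.37, SE 0.17), and shFox2-2 lay between the controls after centring. Of its 28 clusters the strongest, at a coverage of 32300, held 67.9% of its coverage. Slc39a11 had 3.80 and 3.95 FPKM, against 3.75 and 4.04. Cacna2d1, a calcium channel subunit with 4 clusters, had 2.19 FPKM in shFox2-1 and 1.10 in shFox2-2, against 1.94 and 1.91, so its hairpins lay on either side of both controls, an order lost after centring.

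Among 79 transcription and chromatin regulators 4 were hosts, all with negative log2 differences and a median of -0.11. Camta1 had 3.64 and 4.15 FPKM in the knockdown hairpins, against 5.02 and 3.87 in the controls, and the groups overlapped. Arid1b, a subunit of the BAF chromatin remodeller, had 5.01 and 5.11 FPKM, against 5.41 and 5.29, an order that centring ended. All 8 of its clusters lay on the 5′ side of the midpoint.

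Cytoskeletal linkers and actin regulators numbered 5 hosts of 36 genes with 97 clusters. All 5 log2 differences were negative, with a median of -0.09, but both knockdown hairpins were lower than either control in 1 host, Fhod3, at 0.843 and 1.33 FPKM against 1.80 and 1.60. Diap3 (now Diaph3), a formin with 32 clusters, had 12.5 FPKM in shFox2-1 and 10.9 in shFox2-2, against 12.3 and 12.4. Diap2 had 4.17 and 3.68 FPKM, against 3.85 and 4.08, and Utrn had 8.99 and 6.73, against 8.47 and 8.21. In these 3 the knockdown hairpins stood on either side of both controls as deposited. After centring, Diap3 was below both controls in both hairpins, Diap2 had the opposite order, and shFox2-1 lay between the controls in Utrn.

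GTPase regulators gave 6 hosts of 56 genes, 4 lower and 2 higher. Elmo1 had 10.4 and 10.3 FPKM in the knockdown hairpins, against 12.4 and 12.3 in the controls (log2 difference -0.24, SE 0.13), and the groups did not overlap. Dennd1a, an exchange factor for Rab35, had 1.64 and 1.47 FPKM, against 1.89 and 1.93, while Centg2 had 5.33 in shFox2-1 and 6.57 in shFox2-2, against 5.93 and 6.25. In the list of kinases and phosphatases 5 of 67 genes were hosts, of which Magi1 and Cdkal1 are neither kinases nor phosphatases. Ptprk, a receptor tyrosine phosphatase, had 24.1 and 23.1 FPKM, against 22.6 and 22.1, and Cdkal1 had 9.99 and 9.54, against 8.99 and 9.15. Both lay above both controls, by log2 differences of 0.08 and 0.10, and after centring Cdkal1 kept this order and Ptprk did not.

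Membrane traffic and ubiquitin genes gave 5 hosts of 57, with 3 lower and 2 higher. Besides Exoc4 and Rims2 they included Fbxl17, an F-box protein of a ubiquitin ligase, at 2.28 and 2.41 FPKM against 2.71 and 2.37, and Ube2e2, a ubiquitin-conjugating enzyme, at 6.13 and 8.30 against 7.22 and 6.20. The list of fragile-site and other large genes gave 10 hosts of 49, which held 356 clusters, with 5 lower and 5 higher. No gene of the list of 42 RNA-binding and splicing regulators was a host, and 29 hosts were in no list. In none of these lists did limma call a host.

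Among hosts with a mean of at least 5 FPKM, the largest negative differences also included Adk, at 39.1 and 44.1 FPKM in the knockdown hairpins against 47.9 and 50.3 in the controls (-0.24, SE 0.12). The largest positive difference was that of Bcas3, which codes for a protein of autophagosome sites, at 17.6 and 14.2 FPKM against 13.1 and 12.9 (0.26, SE 0.15). Dab1, an adaptor of reelin signalling, had 5.14 and 7.49 FPKM, against 4.99 and 5.11 (0.26, SE 0.20), and Bre had 33.1 and 36.1, against 25.3 and 33.5 (0.24, SE 0.16). In Bcas3 both knockdown hairpins exceeded either control under both scalings. Dab1 had that order as deposited only, with shFox2-1 below both controls after centring, and its log2 difference without shFox2-2 was 0.02. In Bre shFox2-1 lay between the controls. Limma's adjusted p was 0.978 for each of Gpc3, Itpr1, Adk, Elmo1, Bcas3, Dab1 and Bre.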

How the data were processed

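Expression was deposited by the authors as FPKM, 1 value per entry and hairpin with a lower and an upper bound and a status, per the file headers; the 2 libraries of a hairpin are pooled in it. TopHat2 2.0, Cufflinks 2.1.1 and the mouse build mm9 are named in the submitters' processing notes. Each deposited iCLIP cluster has mm9 positions, an Ensembl ID and, joined in 1 field, the authors' coverage, their fold enrichment over UntagFOX2 and a q-value. Only clusters enriched over UntagFOX2 are listed. The lowest coverage in the list was 148. Neither the iCLIP aligner nor the cluster caller nor the definition of coverage is given in the sources used here. Depth per sample was therefore unknown for both assays.

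Clusters were joined to loci with Python 3.11.15 (pandas 2.3.3), and a summit was taken as the middle of its position. A locus counted as alone when no other of the 26857 entries had the same chromosome, start and end. Partial overlap between loci was not checked, but a cluster overlapping more than 1 entry was not counted. Limma 3.58.1 in R 4.3.3 (empirical Bayes, trend option) was fitted to log2(FPKM + 1) for entries with an FPKM above 0 and no failed status (105 entries failed and 6477 were at 0 in every hairpin), with 2 knockdown against 2 control hairpins and Benjamini-Hochberg adjustment. It was tested on simulated data. The deposited bounds were used as given, and their level is not stated. Intervals on shares are exact binomial (95%) from scipy 1.17.1 and cover counting error only. Expressed means a control mean of at least 1 FPKM.

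The text names the 10 hosts with the most clusters, the 5 densest with at least 5 clusters, the 5 longest, separated hosts, the 5 largest differences in each direction at a mean of at least 5 FPKM, up to 3 hosts of each of 10 role lists, extreme clusters and gaps, and the items beside each limit. Plxdc2, Ches1, Dock3, Dock4, Robo1 and Fhod3 were chosen after their values were seen. Some hosts that the rule selects are not reported here by name. The members and lists were chosen with earlier results of these data known. Alternatives covered the limits of length, margin, level and fold, merging of overlapping clusters, the pseudocount, centring and leaving out each hairpin. Leaving out Smyd3, and centring or restricting the counts of hosts by the order of their hairpins, were alternatives chosen after seeing the data.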

Additional observations from a re-analysis of the deposited data

Results flagged for a closer look

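In 8 of the hosts named above the 2 knockdown hairpins lay on opposite sides of both controls, 1 above both and the other below both. The difference between the hairpins was not tested. In log2(FPKM + 1), shFox2-1 minus shFox2-2 was 0.40 for Exoc4, 0.16 for Wwox, 0.18 for Diap3, 0.14 for Diap2, 0.37 for Utrn and 0.60 for Cacna2d1, so shFox2-1 was the higher hairpin in these 6. It was -0.26 for Centg2 and -0.38 for Ube2e2, in which shFox2-1 was the lower. Cacna2d1 had 2.19 FPKM in shFox2-1 and 1.10 in shFox2-2, against 1.94 in shLuc and 1.91 in shGFP. The median expressed entry was itself 0.19 higher in shFox2-1 than in shFox2-2, more than the differences of Wwox, Diap3 and Diap2. After each hairpin was centred on that entry, Exoc4, Centg2 and Ube2e2 kept their order, Diap2 had the opposite one, and Wwox, Diap3, Utrn and Cacna2d1 no longer had hairpins on opposite sides of both controls. Over all 67 hosts such an order was found in 19 as deposited and in 18 after centring, with the same direction in 8. The share of all expressed entries with this order is not given here, so these counts do not show whether it was more frequent in the hosts.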

How the results depend on the processing

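With a margin of 10 kb the median density was 3.15 per 100 kb, the median spacing 3.79 kb and the 5′ share 62.5%. With overlapping clusters merged they were 2.93 per 100 kb, 4.31 kb and 64.7%. Both 5′ shares lay within the counting error of the main value. At a fold of at least 4 over the untagged library the spacing was 6.42 kb and the 5′ share 60.2%. A limit of 200 kb gave 3086 clusters, and a limit of 500 kb gave 757, with a median density of 7.60 per 100 kb. Without Smyd3, 52.8% of clusters had no untagged coverage. The median host response was -0.14 with a pseudocount of 0.1, -0.082 after centring and -0.060 in hosts of at least 5 FPKM. Leaving out each hairpin gave -0.124 to -0.077. Limma called 0 hosts with a pseudocount of 0.1, after centring and with only entries of at least 1 FPKM in the controls. Hosts with separated intervals numbered 0 after centring, against 41 of the 12649 expressed entries, and 1 to 8 with a hairpin left out. Without shFox2-2 there were 8 hosts, against 952 expressed entries, and without shFox2-1 there were 3, against 293. With a hairpin left out, fewer intervals have to lie apart, so these counts are not comparable with the main one. Hosts with both knockdown values below both controls numbered 15 after centring (22.4%), against 17.3% of expressed entries. At 5 FPKM or more they numbered 8 of 26, and the share of expressed entries at that level was not counted. Ube2e2 changed sign without shFox2-2, to -0.11, and without shGFP, to -0.013. In these fits the lone hairpin is assumed to vary like the others. No paired analysis was possible because the columns pool both replicates of a hairpin.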
